A study of Mus musculus with 6 samples.

Results

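Genes of the mitochondrial ribosome were compared between *Hlx* transgenic mice and wild-type littermates in inguinal white fat (iWAT). Members were the rows of the deposited gene table with a symbol made of Mrpl or Mrps and a digit next, which gave 76 of 19445 gene loci. By symbol, 47 were large subunit genes (Mrpl) and 29 were small subunit genes (Mrps). RefSeq lists 78 protein-coding mouse genes with such names, and the other 2 stand in the table under the older symbols *Mrp63* and *Ict1*. They were read with the related genes, not as members.

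The transgenic group (TG) was 3 mice carrying the *Hlx* cDNA behind the *aP2* (*Fabp4*) promoter, and the wild-type group (WT) was 3 littermates without it. The labels give male mice 12 weeks old for both groups, and each mouse gave 1 RNA-Seq library of subcutaneous inguinal fat. The transgene was injected into C57BL/6 × SJL hybrid embryos and the lines were then crossed back to C57BL/6, and the promoter drives expression in brown and white fat of the whole animal, not in iWAT alone. The sources used here do not say how many founder lines the 3 mice represent. *Hlx*, a homeobox transcription factor gene, was at 109.7, 79.6 and 99.5 FPKM in the TG mice and at 6.88, 7.35 and 8.14 FPKM in the WT mice, so the groups were apart as labelled (log2 fold change 3.51 with a standard error, SE, of 0.13; limma adjusted p = 0.000106). All 6 samples had *Xist*, an RNA of the inactive X chromosome in females, at 20.2 to 33.6 FPKM, and each had 0 FPKM at the 28 Y-linked loci, which goes against the label of male sex in both groups alike. FPKM is a read density that takes out the length of the transcript and the size of the library, so levels can be set side by side between genes. The table gives no counts, so the depth of each library is unknown. Their depth relative to one another, read from the spacing of the lowest values, ran from 0.691 to 1.41 with WT replicate 3 as the reference.

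Mitochondria carry their own genome, which encodes a few core proteins of the respiratory chain and of ATP synthase. These are made inside the organelle by a ribosome whose RNA comes from that genome, while all of its proteins are encoded in the nucleus, translated in the cytosol and imported. Some of the proteins have homologues in bacterial ribosomes and others are found only in mitochondria. Brown and beige adipocytes are rich in mitochondria, and their respiratory chain depends on this ribosome.

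Many tested genes of the mitochondrial ribosome rose in TG iWAT, a number of them by less than 1.5 times, and the others did not pass the test. Of the 75 members that passed the filter on low values, 37 rose at an adjusted p under 0.05 (49.3%; limma with Benjamini-Hochberg adjustment over 11692 tested loci, n = 3 mice per genotype), where 11.6% of all tested loci were called higher. No member was called lower, where 7.03% of all tested loci were, and at an unadjusted p under 0.05 the limma counts were 55 higher and 0 lower. The median log2 fold change of the tested members was 0.36 (quartiles 0.25 and 0.52), a median change of 30.1% in mean FPKM, while the median of all tested loci was -0.01. Fold changes are on the log2(FPKM + 1) scale, which understates those of low genes. In 73 of the 75 the log2 fold change was above 0, against 48.4% of all tested loci, and in 58 (77.3%) all TG mice were above all WT mice, against 22.8%. The reverse separation was seen in 0 members and 20.1% of tested loci. Over all loci the limma calls were 1352 higher and 822 lower, a share of 62.2% higher that became 47.9% (1083 and 1178) when each sample was scaled to the same total, where 31 members were called higher. In whole tissue, a change in the number of mitochondria-rich cells and a change in RNA per cell cannot be told apart.

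The number of calls depended on the rule. With a ratio of mean FPKM of at least 1.5 also required, 16 members were called, where 7.67% of all tested loci met that rule, and at an adjusted p under 0.01 the number was 10, where 4.87% of loci did. Each mouse left out in turn also moved the count. It was 20, 28 and 18 without TG replicate 1, 2 and 3, and 28, 18 and 15 without WT replicate 1, 2 and 3, while the share of all loci called higher was then between 6.68% and 11.1%. The median log2 fold change stayed between 0.31 and 0.41 through these 6 fits.

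**Figure D1:**
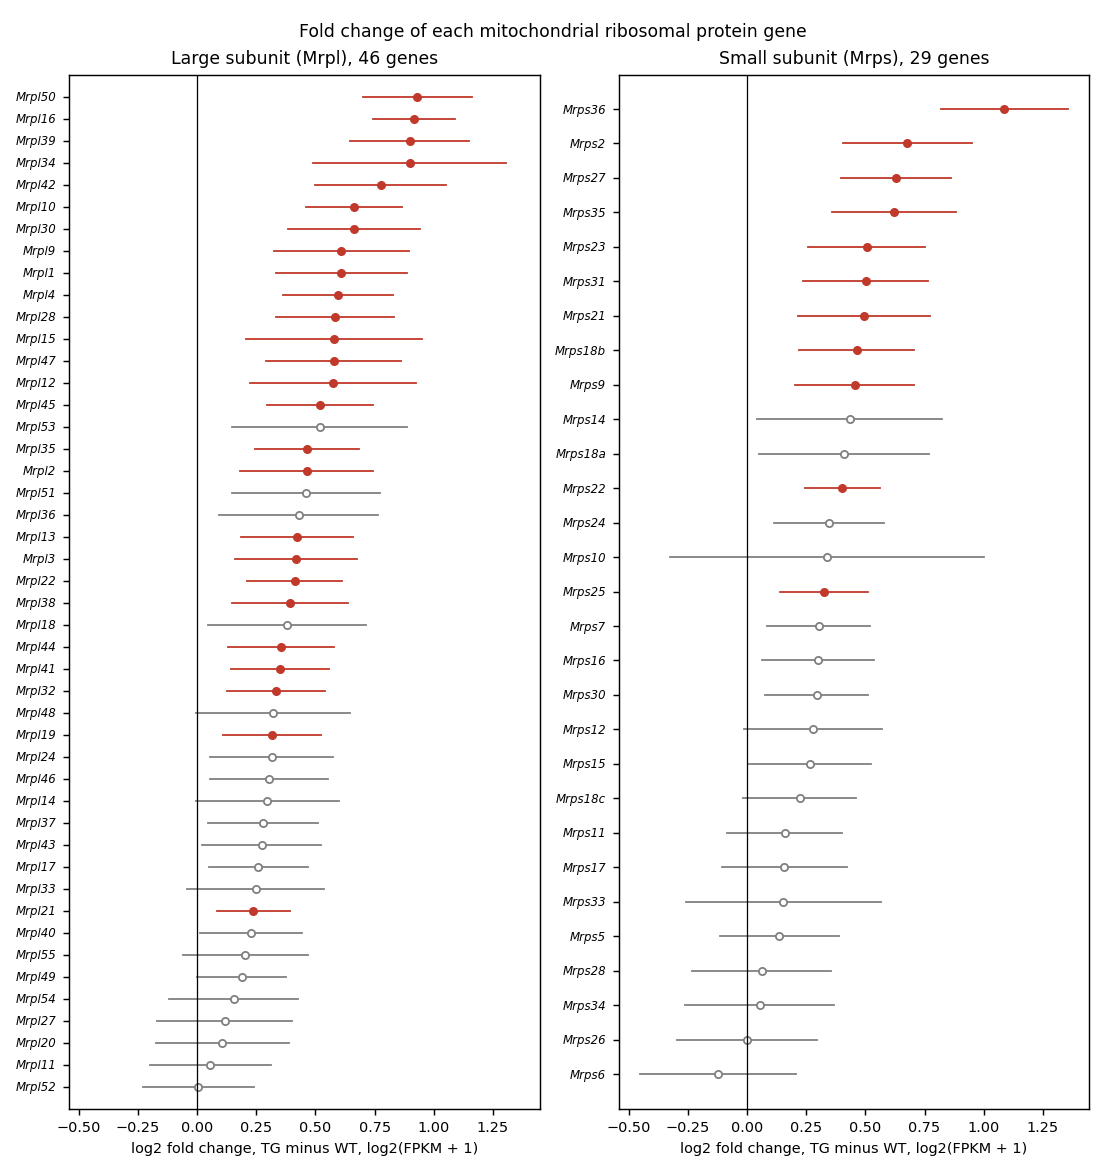
Log2 fold change of TG against WT on log2(FPKM + 1) for the 46 large (left) and 29 small (right) subunit genes tested, with 95% confidence intervals from limma. Filled red points have an adjusted p under 0.05 and open grey points do not. All 46 large subunit genes and 27 of the 29 small subunit genes lie above 0.

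The summed level of the members showed the same difference mouse by mouse. It was 5036, 4333 and 4302 FPKM in the TG mice and 3716, 3486 and 3151 FPKM in the WT mice, a ratio of means of 1.32. Every TG mouse was above every WT mouse (two-sided p = 0.1 in an exact permutation test, the lowest that this design can give). As a share of all FPKM in the sample, the members took 0.929%, 0.842% and 0.853% in the TG mice and 0.717%, 0.736% and 0.676% in the WT mice. The groups thus stayed apart when the summed FPKM of each sample was taken into account. Members tended to be ordered alike within a genotype. TG replicate 1 had the highest TG value for 68 of the 76 members, where it did so for 43.2% of all tested loci, and WT replicate 3 had the lowest WT value for 62.

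**Figure D2:**
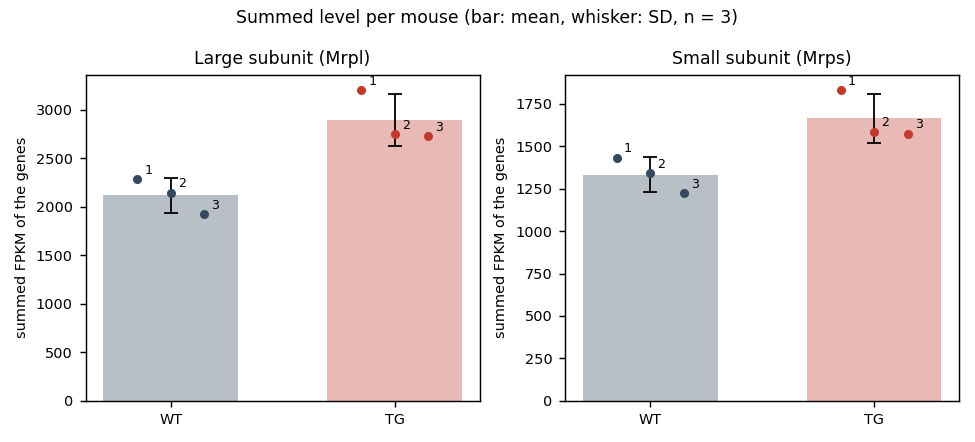
Summed FPKM of the 47 large (left) and 29 small (right) subunit genes in each mouse. Bars are genotype means, whiskers are the SD of 3 mice, and points are single mice with their replicate numbers. The lowest TG sum is above the highest WT sum in both panels.

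Levels of the members were spread wide, and the change had little relation to them. Among tested members WT means ran from 3.52 FPKM (*Mrpl19*) to 206 FPKM (*Mrps21*), a 58.5-fold range of RNA levels. Amounts of the proteins were not measured. TG and WT levels followed nearly the same order (Spearman's rho 0.98 across 76 genes, which share the same 6 libraries). Across the 75 tested members rho between the log2 fold change and the WT level was -0.16, and between the log2 fold change and transcript length 0.12, both given as descriptions since genes are not independent replicates. The median coefficient of variation between mice was 9.30% in WT and 10.2% in TG against the median change of 30.1%. Members lay on 17 chromosomes.

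Large subunit genes were most of the tested members (46 of 75) and held most of the calls (26 of 37). Of 46 tested, 26 rose (56.5%), all 46 had a log2 fold change above 0, and in 40 (87.0%) the groups did not overlap, beside 11.6%, 48.4% and 22.8% of all tested loci. Their median log2 fold change was 0.40, a median change of 33.1%. Their summed level was 3204, 2747 and 2727 FPKM in the TG mice and 2284, 2146 and 1926 FPKM in the WT mice, a ratio of means of 1.37. Between 10 and 20 of them were called with a mouse left out, the lowest count being without WT replicate 3 and the others 14, 17 and 12 without TG replicate 1, 2 and 3 and 12 without WT replicate 2. The share of all loci called higher was then between 6.68% and 11.1%.

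The 6 highest fold changes of the large subunit were those of *Mrpl50*, *Mrpl16*, *Mrpl39*, *Mrpl34*, *Mrpl42* and *Mrpl10*. *Mrpl50* (chr4:49512597-49521083 in mm10), a protein found only in mitochondrial ribosomes, was at 47.9, 39.2 and 43.1 FPKM in TG and 22.9, 23.3 and 20.6 FPKM in WT mice. It nearly doubled, from 22.3 ± 1.43 to 43.4 ± 4.34 FPKM (mean ± SD of 3 mice), and its log2 fold change was 0.93 (SE 0.10; limma adjusted p = 0.0017). *Mrpl16* (chr19:11770370-11819403), the homologue of a bacterial protein near the peptidyl transferase centre, was at 41.5, 37.5 and 39.0 FPKM in TG and 20.9, 19.8 and 20.4 FPKM in WT mice. Values within each genotype were close together, and its adjusted p of 0.00073 (limma, log2 fold change 0.92, SE 0.07) was the lowest of all members. *Mrpl39* (chr16:84717580-84735302), which resembles a threonyl-tRNA synthetase, was at 64.3, 53.4 and 55.1 FPKM in TG and 33.5, 29.8 and 27.9 FPKM in WT mice, a log2 fold change of 0.90 (SE 0.11; limma adjusted p = 0.0025). The table gives *Mrpl16* the same locus as another row, so reads of that neighbour may bear on its value, which was not tested.

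*Mrpl34* (chr8:71464926-71465753), a small basic protein with a bacterial homologue, was at 180, 122 and 131 FPKM in TG and 89.3, 73.1 and 66.9 FPKM in WT mice. TG replicate 1 stood well above the other TG mice, and without WT replicate 3 the log2 fold change of 0.90 became 0.81 with a limma adjusted p of 0.0545. *Mrpl42* (chr10:95480700-95501976), specific to mitochondria, rose from 124 ± 13.4 to 212 ± 21.1 FPKM (SD, n = 3 each; log2 fold change 0.77, limma adjusted p = 0.0063), with TG values of 236, 196 and 205 FPKM and WT values of 138, 120 and 113 FPKM. These made it the most abundant large subunit transcript in TG iWAT.

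Of 3 proteins of the ribosomal stalk, the flexible arm that receives translation factors, *Mrpl10* and *Mrpl12* rose, and differences among the 3 were not tested. *Mrpl10* (chr11:97041586-97049213), which anchors the stalk, was at 73.2, 64.2 and 65.8 FPKM in TG and 44.6, 42.7 and 40.0 FPKM in WT mice, a log2 fold change of 0.66 (SE 0.09; limma adjusted p = 0.0036). *Mrpl12* (chr11:120484669-120488754), the stalk's repeated subunit, was at 219, 187 and 172 FPKM in TG and 147, 135 and 107 FPKM in WT mice, a log2 fold change of 0.57 (limma adjusted p = 0.0381). Its groups did not overlap, but the call was lost in 5 of the 6 fits with a mouse left out (every one but that without WT replicate 1; limma adjusted p from 0.0651 to 0.0985), and with quantile normalization the log2 fold change was 0.35 (limma adjusted p = 0.0734). *Mrpl11* (chr19:4962306-4966995), at the base of the stalk, was at 17.1, 14.7 and 14.6 FPKM in TG and 16.9, 13.9 and 13.8 FPKM in WT mice. These ranges overlap almost fully, and its log2 fold change of 0.06 had a 95% interval from -0.20 to 0.31 (limma adjusted p = 0.737).

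Of 3 proteins at the rim of the exit tunnel, where the new chain meets the inner membrane, *Mrpl45* rose. *Mrpl45* (chr11:97315716-97329920), a mitochondrial protein that faces the membrane, was at 27.2, 26.7 and 26.5 FPKM in TG and 20.02, 19.4 and 16.1 FPKM in WT mice, a log2 fold change of 0.52 (SE 0.10; limma adjusted p = 0.0124). *Mrpl24* (chr3:87919506-87930195), a homologue of a bacterial assembly-initiating protein, was at 106, 94.6 and 89.6 FPKM in TG and 83.6, 80.8 and 68.8 FPKM in WT mice. All TG values were above all WT values, yet its log2 fold change of 0.31 did not pass (limma adjusted p = 0.0868). *Mrpl23* (chr7:142533117-142540742), which in bacteria forms part of the docking site for targeting factors, was the only member under the filter, at 0.956, 1.01 and 0.484 FPKM in TG and 0.889, 1.31 and 0.618 FPKM in WT mice, and RefSeq names 1 pseudogene after it.

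At the other end, 4 large subunit genes had a log2 fold change of 0.12 or less. *Mrpl52* (chr14:54426909-54429750), specific to mitochondria, was at 99.0, 103 and 100.5 FPKM in TG and 114, 96.4 and 92.5 FPKM in WT mice, a log2 fold change of 0.00 (95% interval from -0.23 to 0.24) that was below 0 when each sample was scaled to the same total or quantile normalized. *Mrpl20* and *Mrpl27*, both with bacterial homologues, had log2 fold changes of 0.11 and 0.12 (limma adjusted p = 0.554 and 0.521), and that of *Mrpl20* was -0.01 with quantile normalization. The fourth was *Mrpl11*, whose value was -0.04 when each sample was scaled to the same total. A doubling like that of *Mrpl50* lies outside the intervals of all 4.

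Small subunit genes were higher too, with fewer calls. Of 29 tested, 11 rose (37.9%), 27 had a log2 fold change above 0, and in 18 (62.1%) the groups did not overlap. The shares of all tested loci were 11.6%, 48.4% and 22.8%. Their median log2 fold change was 0.33, a median change of 28.0%. Their summed level was 1831, 1586 and 1575 FPKM in the TG mice and 1432, 1340 and 1225 FPKM in the WT mice, a ratio of means of 1.25. Between 5 and 11 were called with a mouse left out, with 6 calls each without TG replicate 1, TG replicate 3 and WT replicate 2 and 5 without WT replicate 3. In these fits between 6.68% and 11.1% of all loci were called higher. Whether the subunits differed from each other was not tested.

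The member with the highest fold change is not a part of the ribosome in spite of its name. *Mrps36* (chr13:100735940-100744806) encodes a small subunit of the oxoglutarate dehydrogenase complex of the tricarboxylic acid cycle. It was at 20.1, 16.3 and 15.1 FPKM in TG and 8.02, 7.26 and 7.23 FPKM in WT mice, a change of 129% and a log2 fold change of 1.09 (SE 0.11; limma adjusted p = 0.0017). RefSeq names 3 pseudogenes after it, so reads may be shared among copies, which was not tested. Some other symbols mislead as well, since *Mrps18a* and *Mrps30* sit in the large subunit. With genes placed by their seat in the ribosome, an alternative chosen after seeing the data, 26 of 48 large subunit genes (median log2 fold change 0.40) and 10 of 26 small subunit genes (median 0.31) were called higher.

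Among true small subunit proteins, the 5 highest fold changes were those of *Mrps2*, *Mrps27*, *Mrps35*, *Mrps23* and *Mrps31*. *Mrps2* (chr2:28468066-28471177), with a bacterial homologue, was at 40.2, 34.8 and 34.4 FPKM in TG and 26.1, 20.8 and 20.7 FPKM in WT mice, a log2 fold change of 0.68 (SE 0.12; limma adjusted p = 0.0095). *Mrps27* (chr13:99344786-99415561), a pentatricopeptide repeat protein that binds RNA, was at 31.2, 28.2 and 25.8 FPKM in TG and 19.7, 17.1 and 17.2 FPKM in WT mice, a log2 fold change of 0.63 (SE 0.10; limma adjusted p = 0.0070). *Mrps35* (chr6:147042770-147087032), found only in mitochondrial ribosomes, was at 61.0, 54.3 and 61.1 FPKM in TG and 43.7, 35.6 and 34.7 FPKM in WT mice, a log2 fold change of 0.62 (SE 0.11; limma adjusted p = 0.0110). In these 3 every TG mouse was above every WT mouse and the call held with any mouse left out. *Mrps23* and *Mrps31*, both specific to mitochondria, had log2 fold changes of 0.51 and 0.50 (limma adjusted p = 0.019 and 0.0241). Both calls were lost without TG replicate 3, WT replicate 2 or WT replicate 3, and that of *Mrps23* also without TG replicate 1, where the limma adjusted p was between 0.0522 and 0.0813.

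*Mrps21* (chr3:95862652-95870619), with a bacterial homologue, was the most abundant member in both genotypes. It was at 333, 275 and 266 FPKM in TG and 220, 204 and 194 FPKM in WT mice, a log2 fold change of 0.49 (SE 0.12; limma adjusted p = 0.0299). The call depended on the scaling and on which mice were in the fit. With quantile normalization the log2 fold change was 0.16 (limma adjusted p = 0.201). Without TG replicate 1 or 3 or any WT replicate the limma adjusted p was between 0.0503 and 0.0984. *Mrps22*, specific to mitochondria, showed the tightest TG values of those named, 25.8, 25.5 and 25.8 FPKM against 18.5, 19.8 and 19.3 FPKM in WT mice (log2 fold change 0.40, SE 0.07; limma adjusted p = 0.0088). *Mrps12*, the homologue of a bacterial protein at the decoding site, was at 78.6, 75.2 and 61.4 FPKM in TG and 60.2, 64.1 and 52.2 FPKM in WT mice. TG replicate 3 fell within the WT range, and the log2 fold change of 0.28 did not pass (limma adjusted p = 0.155).

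The *Mrps18* paralogs come from 1 ancestral gene and take up different seats. *Mrps18b* (chr17:35910385-35916369), a small subunit protein, was at 29.9, 25.6 and 24.6 FPKM in TG and 18.8, 20.8 and 17.5 FPKM in WT mice, a log2 fold change of 0.46 (limma adjusted p = 0.0241, or between 0.0559 and 0.0810 without TG replicate 1, WT replicate 1 or WT replicate 3). *Mrps18a* (chr17:46111004-46128908), seated in the large subunit, was at 72.6, 101.1 and 71.6 FPKM in TG and 67.9, 56.8 and 57.6 FPKM in WT mice, a log2 fold change of 0.41 (SE 0.15; limma adjusted p = 0.103) with TG replicate 2 far above the rest. *Mrps18c* (chr5:100798759-100804467), the small subunit paralog nearest to the bacterial protein, was at 47.4, 41.3 and 44.1 FPKM in TG and 42.5, 36.3 and 34.9 FPKM in WT mice, and its log2 fold change of 0.22 did not pass (limma adjusted p = 0.160). The intervals of the 3 overlap, and their differences were not tested. *Mrps30*, the other large subunit protein with an Mrps symbol, had a log2 fold change of 0.29 (limma adjusted p = 0.0668).

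The 4 lowest small subunit values were those of *Mrps6*, *Mrps26*, *Mrps34* and *Mrps28*. *Mrps6* (chr16:92058322-92112227), with a bacterial homologue, was at 104, 85.9 and 87.8 FPKM in TG and 94.9, 121 and 88.4 FPKM in WT mice, and its log2 fold change of -0.12 had a 95% interval from -0.45 to 0.21 (limma adjusted p = 0.560). Its row in the table also names *Slc5a3*, a myo-inositol transporter gene, so the value is a sum of both. *Mrps26* (chr2:130563757-130565394), specific to mitochondria, was at 45.0, 37.2 and 36.4 FPKM in TG and 45.5, 35.5 and 37.9 FPKM in WT mice, nearly the same values in both groups (95% interval of the log2 fold change from -0.30 to 0.29). *Mrps34*, in a row that also names *Nme3*, and *Mrps28* had log2 fold changes of 0.05 and 0.06 (limma adjusted p = 0.799 and 0.749), both below 0 when each sample was scaled to the same total or quantile normalized. The other rows with a second symbol were those of *Mrpl53* and *Mrpl55*, with log2 fold changes of 0.52 and 0.20 (limma adjusted p = 0.0605 and 0.232). None of these 4 rows passed, and without them 37 of 71 members were called higher.

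**Figure D3:**
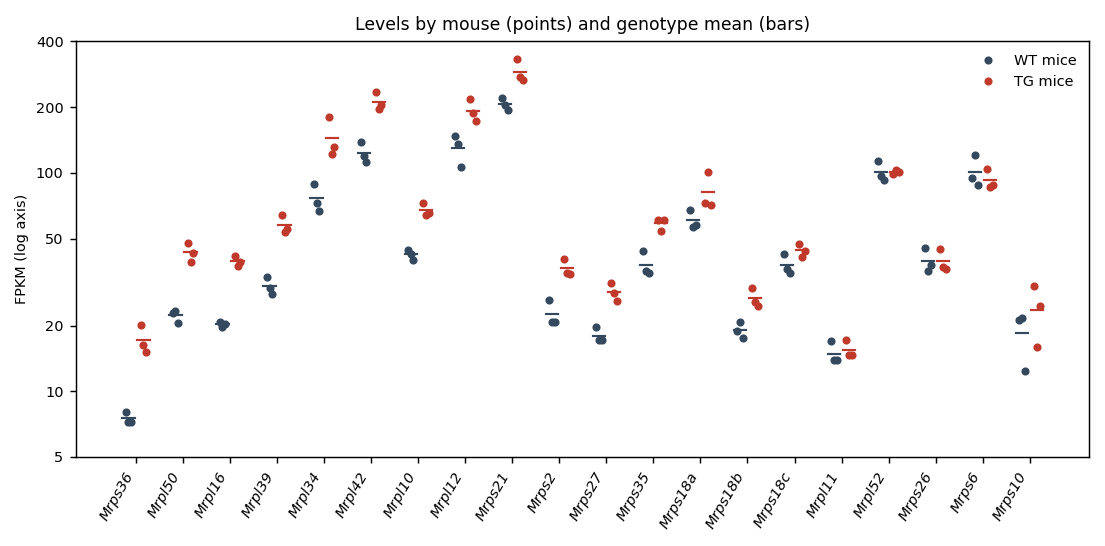
FPKM of 20 members in each mouse on a log axis, with WT in blue and TG in red and short lines at the genotype means. From *Mrps36* to *Mrps18b* the TG points lie above the WT points, while those of *Mrps18c*, *Mrpl11*, *Mrpl52*, *Mrps26*, *Mrps6* and *Mrps10* overlap.

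Calls were spread over proteins of both origins, beside 11.6% of all tested loci that were called higher. Of 44 tested members with a bacterial homologue, 22 rose (median log2 fold change 0.36). Of 30 classed as found only in mitochondria, 14 rose (median 0.35). *Mrps18a* and *Mrps18b* were counted in this class, and their paralog *Mrps18c* among the bacterial homologues. Within the large subunit by seat, the calls were 19 of 28 bacterial homologues (median 0.43) and 7 of 20 mitochondrial proteins (median 0.33). Within the small subunit they were 3 of 16 (18.8%, median 0.29) and 7 of 10 (70.0%, median 0.43), the opposite order. These counts are descriptions, and the differences between classes were not tested.

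Some of the other genes of mitochondrial translation rose as well, which is given as counts beside the 11.6% of all tested loci that were called higher. Of the 4 small subunit proteins under other symbols, *Ptcd3* and *Dap3* rose. *Ptcd3*, a pentatricopeptide repeat protein, was at 48.7, 37.0 and 40.4 FPKM in TG and 22.6, 20.5 and 20.4 FPKM in WT mice (log2 fold change 0.95, limma adjusted p = 0.0025), a near doubling that put it above every small subunit member but *Mrps36*. *Dap3*, a GTP-binding protein, had a log2 fold change of 0.39 (limma adjusted p = 0.0125), and the lowest of the list, *Aurkaip1*, had 0.26 (limma adjusted p = 0.174). Of the 3 large subunit proteins under other symbols, *Mrp63* rose by a log2 fold change of 0.47 (limma adjusted p = 0.0200, not called without WT replicate 2 or 3), while *Ict1*, a ribosome rescue factor, had 0.06 (limma adjusted p = 0.724).

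Of 12 mitochondrial translation factors, 7 rose (58.3%) and all 12 had a log2 fold change above 0, where 48.4% of all tested loci did, with a median of 0.48. *Gfm1*, the elongation factor that moves the ribosome along the message, was highest, at 84.0, 63.8 and 76.1 FPKM in TG and 39.6, 35.5 and 35.9 FPKM in WT mice (log2 fold change 0.99, limma adjusted p = 0.0024). The other 6 were the initiation factors *Mtif2* and *Mtif3*, *Tsfm*, the recycling factor *Gfm2*, *Guf1* and *Taco1*, a translational activator of a cytochrome c oxidase subunit. *Mtfmt*, which formylates the initiator methionine, had the lowest value, 0.08 (limma adjusted p = 0.629), and between 5 and 7 were called with a mouse left out.

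Of 17 mitochondrial aminoacyl-tRNA synthetases, the enzymes that charge tRNAs for this ribosome, 11 rose (64.7%), and the median log2 fold change was 0.50. *Aars2*, the alanine enzyme, had the highest value, 0.65 (5.75 ± 0.507 to 9.58 ± 0.931 FPKM, SD, n = 3 each; limma adjusted p = 0.0067), and *Ears2*, the glutamate enzyme, the lowest, -0.15 (limma adjusted p = 0.223), with every TG mouse below every WT mouse. Of 22 assembly factors and rRNA-modifying enzymes tested, 5 rose (22.7%; *Mettl15*, *Mtg1*, *Nsun4*, *Eral1* and *Rbfa*) and the median was 0.24. *Mettl15*, a methyltransferase for the small subunit rRNA, had a log2 fold change of 0.74 (limma adjusted p = 0.0146), and *Dhx30*, an RNA helicase, one of 0.01 (limma adjusted p = 0.950). The count of assembly genes depended on which mouse was left out. It was 0 without TG replicate 3, 3, 1 and 1 without TG replicate 1, WT replicate 2 and WT replicate 3, and up to 7 in the other fits. The share of all loci called higher was then between 6.68% and 11.1%. For the synthetases the count was 6 without TG replicate 3 and 7 without WT replicate 2. The proteins encoded in the mitochondrial genome were not analysed here.

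**Figure D4:**
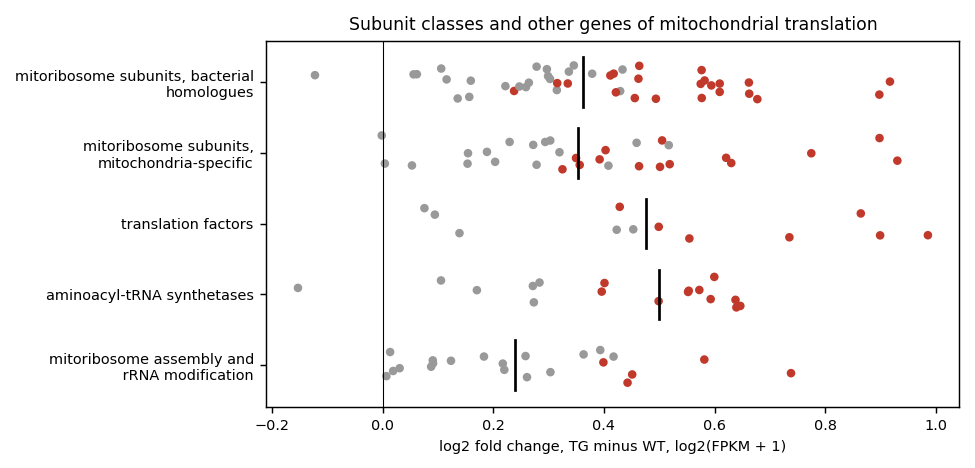
Log2 fold change of TG against WT for single genes (points) in the subunit classes and in 3 lists of translation genes, with vertical bars at the medians. Red points have an adjusted p under 0.05 (limma). The medians run from 0.24 for the assembly genes to 0.50 for the synthetases, and no point left of 0 is red.

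The members were set beside the proteins of the other ribosome in the cell and those of the respiratory chain, 2 groups chosen by symbol after values had been seen. Of 75 cytosolic ribosomal protein genes (Rpl or Rps and a digit), 0 were called higher and 12 lower at an adjusted p under 0.05 in limma, against 1 and 30 at an unadjusted p under 0.05, and their median log2 fold change was -0.22. Whether reads of pseudogenes enter these values was not tested. Of 83 nuclear genes of oxidative phosphorylation, 69 rose and 0 were called lower (73 and 1 at an unadjusted p under 0.05 in limma), with a median of 0.91. Of all tested loci, 11.6% were called higher and 7.03% lower, and 19.4% and 16.8% at an unadjusted p under 0.05 in limma. Differences between these groups were not tested.

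**Figure D5:**
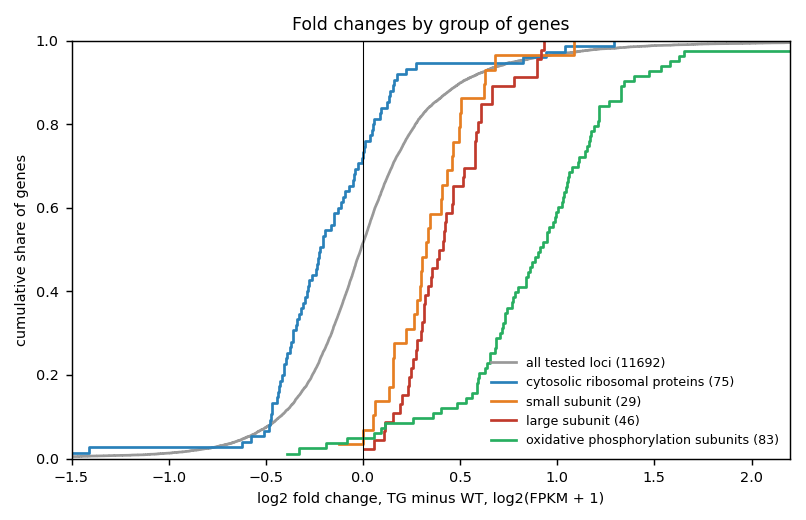
Cumulative share of genes by log2 fold change of TG against WT. The medians of the large and small mitochondrial subunits (0.40 and 0.33) lie between those of all tested loci (-0.01) and of oxidative phosphorylation genes (0.91). The median of cytosolic ribosomal proteins (-0.22) is the lowest. Curves cross toward their ends, and the horizontal axis covers part of the range.

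Promoters were read for the members, since many nuclear genes of mitochondrial proteins share a few motifs close to their start sites. The RefSeq promoter table (GRCm38.p6, the build called mm10, from 250 bases before to 50 after a start site) held 73 promoters of 67 of the 76 members. On either strand, the NRF1 letters GCGCATGC were in 8 of the 73 (11.0%, against 2.71% of all 32851 promoters and 4.96% of the 11239 promoters of tested genes). The ETS letters CCGGAAGT were in 12 (16.4%, against 3.89% and 7.39%), and the YY1 letters AAGATGGC were in 12 (16.4%, against 2.75% and 4.12%). The E-box letters CACGTG were in 7 (9.59%, against 7.15% and 9.78%), the ERR letters TCAAGGTCA in 0 (against 0.423% and 0.258%), and 33 promoters held at least 1 of the 5 (45.2%, against 15.4% and 23.4%). Of the 7 with E-box letters, 3 are overlapping windows of *Mrpl2*, so they stand for 5 genes. A match is a run of letters and not a measured site, and no search was made outside the window. Among the 33 promoters of members that rose and the 39 of members that did not pass, NRF1 letters were in 6 and 2, ETS letters in 3 and 9, and YY1 letters in 4 and 8. The 5 promoters printed here show genes that rose with and without a match, and a gene with a match and a log2 fold change near 0. They are given 5′ to 3′ on the strand of the gene, with matches to any of the motifs in capitals, for *Mrpl50* (chr4:49521034-49521333, minus strand; rose, no match), *Mrpl39* (chr16:84735195-84735494, minus strand; rose, NRF1 on both strands in overlap), *Mrpl10* (chr11:97041332-97041631, plus strand; rose, NRF1), *Mrps27* (chr13:99344536-99344835, plus strand; rose, ETS and then YY1) and *Mrps26* (chr2:130563507-130563806, plus strand; log2 fold change near 0, ETS).
Mrpl50: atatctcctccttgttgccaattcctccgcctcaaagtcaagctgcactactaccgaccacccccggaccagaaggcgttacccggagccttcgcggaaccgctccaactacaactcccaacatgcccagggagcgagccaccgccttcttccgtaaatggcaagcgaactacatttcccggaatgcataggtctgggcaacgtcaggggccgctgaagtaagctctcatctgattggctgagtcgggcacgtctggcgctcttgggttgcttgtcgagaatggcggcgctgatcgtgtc
Mrpl39: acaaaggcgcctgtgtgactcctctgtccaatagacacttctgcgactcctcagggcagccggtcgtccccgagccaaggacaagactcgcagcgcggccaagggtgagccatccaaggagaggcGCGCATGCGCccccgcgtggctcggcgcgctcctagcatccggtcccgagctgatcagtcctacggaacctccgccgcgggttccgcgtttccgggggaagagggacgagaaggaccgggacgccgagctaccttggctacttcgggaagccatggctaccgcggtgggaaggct
Mrpl10: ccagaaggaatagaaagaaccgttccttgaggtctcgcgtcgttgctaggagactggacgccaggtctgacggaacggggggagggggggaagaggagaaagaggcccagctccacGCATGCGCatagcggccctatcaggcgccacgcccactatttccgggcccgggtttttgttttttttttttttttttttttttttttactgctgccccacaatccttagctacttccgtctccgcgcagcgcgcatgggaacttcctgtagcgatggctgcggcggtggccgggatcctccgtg
Mrps27: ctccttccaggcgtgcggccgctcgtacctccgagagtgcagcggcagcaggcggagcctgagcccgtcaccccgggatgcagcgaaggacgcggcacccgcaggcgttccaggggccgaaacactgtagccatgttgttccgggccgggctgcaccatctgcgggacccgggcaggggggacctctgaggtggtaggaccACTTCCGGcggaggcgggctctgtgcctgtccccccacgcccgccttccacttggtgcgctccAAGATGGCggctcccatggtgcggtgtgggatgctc
Mrps26: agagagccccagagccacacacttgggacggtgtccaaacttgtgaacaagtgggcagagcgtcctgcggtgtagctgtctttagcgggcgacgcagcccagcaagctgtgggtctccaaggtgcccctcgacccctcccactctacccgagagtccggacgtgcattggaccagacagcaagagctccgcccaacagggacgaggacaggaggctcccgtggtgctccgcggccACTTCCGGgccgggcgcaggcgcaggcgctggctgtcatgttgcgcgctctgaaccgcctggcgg

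Some members share their promoter region with a neighbour that runs the other way. By GENCODE start sites, 17 of 76 members (22.4%) had a protein-coding gene on the opposite strand, head to head, within 1000 bases. The share was 6.77% of 21924 protein-coding genes. Pairs whose GENCODE starts overlap were left out of both counts, so head-to-head pairs can be missing. *Mrps11* and *Mrpl46*, on opposite strands of chromosome 7, are not among the 17, although their loci in the FPKM data start at 78783131 and end at 78783089. Of these neighbours 16 were tested and 3 rose (18.8%, where 11.6% of all tested loci did), and their median log2 fold change was 0.17 where the members beside them had 0.31. The member had the higher value in 12 of the 16 pairs and the neighbour in 4, and no difference within a pair was tested. *Zfp189*, a zinc finger gene that starts 83 bases from *Mrpl50*, had 2.23 FPKM in WT and 3.00 FPKM in TG mice (log2 fold change 0.31, limma adjusted p = 0.0773). *Mitd1*, which starts 66 bases from *Mrpl30*, had a log2 fold change of -0.02 (limma adjusted p = 0.932) where *Mrpl30* rose by 0.66 (limma adjusted p = 0.0111). *Mrpl30* has the same locus as other rows, so reads of neighbours may bear on its value, which was not tested. *Ptcd2*, a mitochondrial pentatricopeptide repeat protein gene 81 bases from *Mrps27*, rose by 0.45 (limma adjusted p = 0.0278). *Apba3*, 26 bases from *Mrpl54*, rose by 0.53 (limma adjusted p = 0.0068), where *Mrpl54* had 0.15 (limma adjusted p = 0.368), and *Klc4*, 207 bases from *Mrpl2*, rose by 0.47 (limma adjusted p = 0.0104) beside 0.46 for *Mrpl2* (limma adjusted p = 0.0382). The libraries were not stranded, so reads from overlapping ends of such pairs cannot be assigned by strand.

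Markers of other cells in the fat depot also differed between mice. The summed FPKM of 9 skeletal muscle markers was 93.5, 670 and 133 in the TG mice and 7.64, 141 and 39.3 in the WT mice, with TG replicate 2 the highest. All 9 had a log2 fold change above 0 (median 2.17), and none passed the test (limma; 2 at an unadjusted p under 0.05). Another marker, *Tnnt3*, shares its row with *Lsp1*, a leukocyte gene, and with it the sums were 257, 1003 and 309 in TG and 208, 380 and 293 in WT mice. Without TG replicate 2, 28 members were called higher, where 11.1% of all loci were. TG replicate 2 had the highest TG value for 5 of the 76 members, where it did so for 31.2% of all tested loci. Whether muscle tissue bears on the member values was not tested. The sum of 5 macrophage markers was 85.7, 109 and 87.9 in TG and 155, 141 and 180 in WT mice, that of 10 lymphocyte markers 390, 547 and 463 in TG and 528, 662 and 747 in WT mice. The lymphocyte sum holds *Cd79a*, whose row also names *Arhgef1*, at 139, 169 and 147 FPKM in TG and 166, 207 and 233 FPKM in WT mice. Endothelial sums (5 markers) were between 140 and 148 in TG and 124 and 134 in WT mice, and epithelial sums (6 markers) between 79.3 and 173 in TG and 122 and 193 in WT mice. The row of *Krt14* in the epithelial sum also names *Krt17* and *Krt42*. In limma 3 macrophage markers and 1 lymphocyte marker were called lower and 2 endothelial markers higher, where 7.03% and 11.6% of all tested loci were. The 6 adipocyte markers were abundant in every mouse, with sums between 28224 and 33511 in TG and 23944 and 29635 in WT mice, most of it *Fabp4*. Without *Fabp4* the sums were 4148, 4197 and 3663 in TG and 6095, 4978 and 4647 in WT mice. *Adipoq* fell from 2481 to 1363 FPKM (log2 fold change -0.85, limma adjusted p = 0.0172) and was the only adipocyte marker called. *Plin1*, *Lipe*, *Pparg* and *Cidec* had log2 fold changes of 0.04, 0.05, -0.02 and -0.21, and *Fabp4* had 0.28. The median of the 5 markers without *Fabp4* was -0.02. The part of the muscle, immune, endothelial and adipocyte marker differences in the result was not tested.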

How the data were processed

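RNA was extracted with Trizol and made into TruSeq v2 libraries, which do not keep strand, and the authors sequenced them as single-end reads of 100 bases. Per the labels and the study's methods, the authors mapped the reads to mm10 with TopHat2 2.0.9 and Bowtie2 2.1.0, quantified genes with Cufflinks 2.2.1 and deposited FPKM values for each gene locus and mouse, with CASAVA 1.8.2 also named in the submitters' processing notes. The annotation is not given in the sources used here. FPKM sums per sample were 466059 to 542096, no count was given, and the number of mice limits the precision.

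Here, loci whose mean FPKM passed 1 in TG or in WT were fitted on log2(FPKM + 1) with limma 3.58.1 in R 4.3.3 (lmFit, eBayes with trend, no covariates, two-sided, Benjamini-Hochberg over all 11692 loci). Tables and figures were made with Python 3.11.15, pandas 2.3.3, scipy 1.17.1 and matplotlib 3.10.9. The procedure was tested on simulated data. Members and gene lists were chosen with earlier results of these data known. The genes named are the 6 highest and 4 lowest fold changes of each subunit, rows with a second symbol, members under the filter, the *Mrps18* paralogs, *Mrps30*, *Mrps36*, the stalk, exit tunnel and decoding proteins listed, and the highest and lowest of each list. *Mrps21*, *Mrps22*, *Mrpl19*, *Mrpl30*, *Mrpl14*, *Mrps10*, the other genes that rose in a list and the head-to-head neighbours were named after their values were seen. Of the 76 members, 15 share a locus with another row, among them *Mrpl16*, *Mrpl19*, *Mrpl24*, *Mrpl30* and *Mrps22*. Whether reads of neighbours bear on their values was not tested. Start sites came from GENCODE and promoters from RefSeq. Other settings were another pseudocount (0.1), other filters, 3 other scalings, eBayes without trend, sample weights, a replicate block, each mouse left out and stricter calls.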

Additional observations from a re-analysis of the deposited data

How the results depend on the processing

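With no filter on low values, which adds loci near 0 to the adjustment, 3.85% of all loci were called higher. Among the members 17 were (11 large and 6 small subunit genes), beside 0, 2 and 7 genes of the lists of large subunit proteins under other symbols, assembly factors and synthetases. At an adjusted p under 0.01 the count of members was 10 (6 and 4), and with a ratio of at least 1.5 it was 16 (12 and 4). With a mouse left out it ran from 15 to 28 for all members, 10 to 20 for the large and 5 to 11 for the small subunit, 0 to 1 for the other large subunit proteins, 0 to 7 for the assembly genes and 6 to 11 for the synthetases. Of the members named, *Mrpl34*, *Mrpl12*, *Mrps23*, *Mrps31*, *Mrps18b* and *Mrps21* were not called without the filter (limma adjusted p from 0.0595 to 0.113). No member was called lower in any of these. Signs turned only among members near 0. With each sample scaled to the same total, the log2 fold change was -0.095 for *Mrpl52*, -0.038 for *Mrpl11*, -0.045 for *Mrps34* and -0.036 for *Mrps28*. With quantile normalization it was -0.096 for *Mrpl52*, -0.013 for *Mrpl20*, -0.048 for *Mrps34* and -0.037 for *Mrps28*, and with median-ratio scaling 0.0018 for *Mrps26*. With a mouse left out it ran from -0.055 to 0.093 for *Mrpl52*, -0.015 to 0.147 for *Mrpl11*, -0.015 to 0.176 for *Mrpl20*, -0.213 to 0.0089 for *Mrps6*, -0.097 to 0.099 for *Mrps26*, -0.056 to 0.152 for *Mrps34* and -0.041 to 0.141 for *Mrps28*. The causes were not tested.

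Of the 37 members called higher, 14 kept the call in all 15 other fits: *Mrpl4*, *Mrpl10*, *Mrpl16*, *Mrpl28*, *Mrpl30*, *Mrpl39*, *Mrpl42*, *Mrpl45*, *Mrpl50*, *Mrps2*, *Mrps22*, *Mrps27*, *Mrps35* and *Mrps36*. How many of all 1352 loci called higher kept the call was not counted. The 14 therefore do not show whether members were more or less stable than other loci. Replicate numbers in the labels name different animals. Deviations of same-numbered mice from their genotype means correlated at 0.013, 0.034 and 0.070, and those of other pairs between -0.186 and 0.135. With 3 mice per genotype, these values cannot tell whether same-numbered mice share a litter or a batch. With the replicate number as a block, 38 members were called higher, where 10.5% of all loci were. Without counts, no interval from depth could be given.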

Other observations

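A few members had a mouse that stood apart within its genotype. *Mrpl14*, a large subunit protein with a bacterial homologue, was at 66.2, 86.7 and 63.6 FPKM in TG and 60.2, 59.0 and 54.9 FPKM in WT mice, highest in TG replicate 2 as *Mrps18a* was. These genes lie 412.5 kb apart on chromosome 17. *Mrps10*, on the same chromosome (chr17:47368881-47379256), was at 30.5, 15.9 and 24.6 FPKM in TG and 21.2, 21.8 and 12.4 FPKM in WT mice, with TG replicate 2 the lowest of its group and a limma interval of the log2 fold change from -0.33 to 1.00. The members were chosen after their values were seen, and nothing about a cause was tested.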
